A study of Homo sapiens with 34 samples.

Results

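Of the genes named in the 3 deposited lists of m6Am peaks of HEK293T cells, 9 of 1807 were analysed: TROVE2, UQCC3, LBHD1, R3HDM2, INHBC, TMEM107, MFSD11, DDT and SLC25A5. They were selected on the deposited ratio of stressed to untreated cells: a line under each of these names has a ratio under 1 in the heat shock list and overlaps, by at least 1 bp, a hypoxia line with a ratio under 1, in some cases under the name of a neighbouring gene. These ratios therefore describe the genes and support nothing about them. The 9 names stand for 7 loci, because UQCC3 and LBHD1 overlap each other, and the spans named R3HDM2 and INHBC lie on top of each other. The names have 23 lines among the 2116 of the 3 lists: 10 in the heat shock list, 10 in the hypoxia list and 3 in the list of HEK293T cells under normal conditions.

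HEK293T cells are an established line derived from human embryonic kidney. They were heat-shocked at 43 °C for 2 h with a recovery of 6 h, kept in 1% oxygen for 24 h, or left untreated. Each of these 3 conditions has 7 libraries: m6A-IP with FTO treatment (2) and without it (2), m7G-IP (2), and an input (1). The HEK293T list comes from wild-type cells, with 2 libraries of each of these kinds. Each list gives 1 set of peaks per condition, so no error between replicates can be given, the depth behind a ratio is unknown and no test was made. Both stresses were compared with the same untreated libraries, so the paired ratios of a locus are not independent. The libraries kept the strand of the RNA and reads were separated by strand, but the lists give no strand and no RNA level. Therefore RNAs of opposite strands, and a lower m6Am level and a smaller amount of the RNA, cannot be told apart from them. The RNA levels of the input libraries were not analysed here. All counts of lines, and each statement that a gene or locus has no line, hold for these deposited lists alone. For each stress, the paper counts slightly more changed m6Am peaks than its list has lines.

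m6Am is a methylated adenosine at the first transcribed base of an mRNA, next to the m7G cap. The methyltransferase PCIF1 adds its N6-methyl group, and the demethylase FTO can remove it. An m6Am peak is therefore looked for at a transcription start site, and where a pair of genes start close together on opposite strands, its position alone does not name the gene. The sites with A as the first base, and among them those in a BCA context (CCA, GCA or TCA, the last base being the first one transcribed), are the ones of interest at each locus.

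Start sites of 13 genes at the 7 loci are shown for this reason. Each window has 20 bases before the annotated start and 10 from it on, 5′ to 3′ on the gene's own strand in GRCh37, with the start base and the 2 bases before it in capitals. The main annotated transcript was taken where its start lies in a stress span, otherwise the start of the same gene in the span nearest to it. For the neighbours R3HDM2-DT and GSTT2, which have none in a span, the annotated start of the gene was taken. INHBC and TMEM107, of the 9 genes, also have no start in a stress span, and their starts are not shown or counted here. TROVE2 is annotated under its present symbol, RO60.
RO60: ctttccgaagccgggaccGCTcctgcttgt
UCHL5: agaaagaggaggagtaaaGCAggccctctc
UQCC3: tctagcctgcgccaagggGTAgtgagaccg
LBHD1: gtcagtccagggtttgggGGAaacgtgctc
R3HDM2: cccagaagcgcgccgccgCCGgccgtcggg
R3HDM2-DT: tggcttcccgcgtgccccTCAgcagccctg
SNORD118: atgtcggctgtttgtctgTATcgtcaggtg
MFSD11: ttggcgcttctccgggggTTGtgctcttcc
SRSF2: cagaggccggctgcccgcCCAgttgttact
DDT: cccccagcttttcttccgCCAgagctgttt
GSTT2: gcgaggcgggtccgggggTGGtgcgctcca
SLC25A5: cggccatttgcttcgctcCGCcccgcagcg
SLC25A5-AS1: aggcacacgcgcttcccgGCGccggcttcc
In order, the windows lie at chr1:193029144-193029173 (plus strand), chr1:193029201-193029230 (minus), chr11:62439125-62439154 (plus), chr11:62439730-62439759 (minus), chr12:57824582-57824611 (minus), chr12:57824879-57824908 (plus), chr17:8076896-8076925 (minus), chr17:74734181-74734210 (plus), chr17:74733404-74733433 (minus), chr22:24316621-24316650 (minus), chr22:24322229-24322258 (plus), chrX:118602387-118602416 (plus) and chrX:118603049-118603078 (minus). Of these 13 starts, 6 are an A and 4 stand in a BCA context: those of UCHL5, R3HDM2-DT, SRSF2 and DDT. Over all 43 annotated start sites in the lowered spans of the 7 loci, 12 (27.9%) are an A and 7 (16.3%) are in a BCA context. Of these 7, 4 belong to genes among the 9 (LBHD1 with 2, MFSD11 and DDT with 1 each) and 3 to neighbours (UCHL5, SRSF2 and SLC25A5-AS1). The same shares are 33.0% and 16.5% over the 394 start sites in all heat shock spans, 34.9% and 17.3% over the 2177 in all hypoxia spans, and 34.0% and 14.4% over all 220817 annotated start sites. Main start sites alone, 1 for each of 19799 protein-coding genes, have 50.6% and 34.4%, but the sites counted in the spans include alternative starts. An annotated start is not a measured one, and a base that is not A in these letters says nothing of the starts the cells used.

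The lowered lines make up 35 of 74 heat shock lines (47.3%) and 31 of 390 hypoxia lines (7.95%). After repeats were merged, 9 of 35 lowered heat shock spans overlapped a lowered hypoxia span, and 7 of 27 lowered hypoxia spans overlapped a lowered heat shock span. All of these carry a name of the 9 genes, which is what the selection rule asks for. The median ratio of the 9 heat shock spans was 0.420, beside 0.413 for all 35 lowered heat shock spans and 1.79 for all 74 lines. The median of the 7 hypoxia spans was 0.267, beside 0.270 for all 27 distinct lowered hypoxia spans and 2.28 for all 390 lines.

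**Figure D1:**
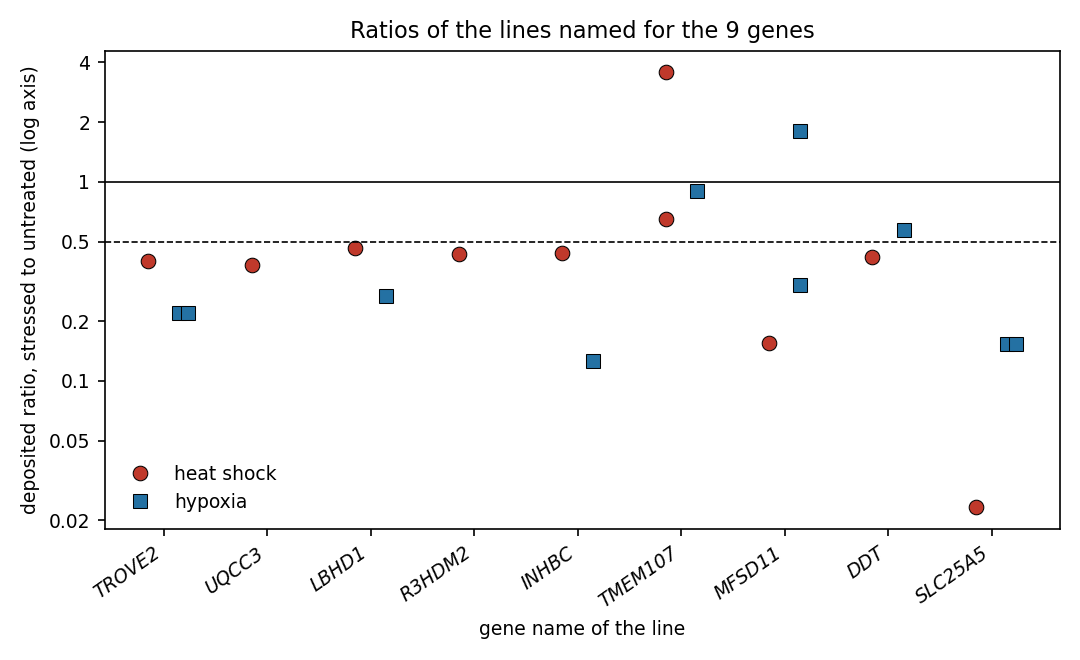
Deposited ratio of stressed to untreated cells (log axis) for every line named for the 9 genes, heat shock as circles and hypoxia as squares. The solid line is a ratio of 1 and the dashed line 0.5, touching squares are a span listed again with the same ratio, and the lowest value is the SLC25A5 heat shock ratio of 0.0232.

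SLC25A5 encodes an ADP/ATP carrier of the inner mitochondrial membrane. Its ratio was the lowest of the heat shock list, at 0.0232, or 43.1-fold lower than in untreated cells. The hypoxia ratio was 0.154, or 6.51-fold lower, and the fifth lowest of 27 lowered spans. Both lists give the same span of 990 bp, chrX:118602094-118603083, which begins 313 bp before the main SLC25A5 start. The span holds 205 exon bases of SLC25A5 on the plus strand, with 72 bases of 5′ UTR and 111 coding bases among them. On the minus strand, all 990 bases are annotated as exon of SLC25A5-AS1, a long non-coding RNA that runs across the promoter. The span holds 2 start sites of the plus strand and 6 of the minus strand, the closest pair being 126 bp apart. The hypoxia list holds this span on its lines 3 and 23, with the same ratio, and the HEK293T list has no line that overlaps it.

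MFSD11 encodes a protein of the major facilitator superfamily of membrane transporters. Its heat shock ratio was 0.154, 6.47-fold lower than in untreated cells and the second lowest of that list. Under hypoxia the same span, chr17:74733004-74734492 (1489 bp), is listed with 0.302 and again, further down, with 1.80. The latter is the lowest ratio among the 359 raised hypoxia lines. So MFSD11 is lowered under hypoxia by one line and raised by the other. SRSF2, which encodes a serine/arginine-rich splicing factor, starts inside the span on the other strand, its main start 788 bp from the main MFSD11 start. The closest pair of starts of the 2 genes is 54 bp apart. The span contains 1194 exon bases of MFSD11, nearly all 5′ UTR (1136), and 412 exon bases of SRSF2, 173 of them 5′ UTR and 239 coding in at least one transcript. It ends on the first base of an MFSD11 transcript. MIR636, within 1000 bp of the span, and SRSF2 are not named in any of the 3 lists, and no HEK293T span overlaps the locus.

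TROVE2 encodes the Ro autoantigen, an RNA-binding protein that holds Y RNAs and misfolded small RNAs. Its ratios were 0.403 under heat shock and 0.220 under hypoxia, 2.48-fold and 4.56-fold lower. The span, chr1:193028997-193029237, is the same 241 bp in both lists and stands on lines 7 and 27 of the hypoxia list with the same ratio. TROVE2 and UCHL5, which encodes a deubiquitinase of the proteasome, are head-to-head, their main start sites being 252 bp apart. Both of these lie outside the span, which starts 255 bp downstream of the main TROVE2 start. Inside it are 2 alternative TROVE2 starts and 1 of UCHL5, and the closest pair is 23 bp apart. Exon bases are nearly equal on the strands, 234 of TROVE2 (all 5′ UTR) and 214 of UCHL5 (82 of 5′ UTR and 132 coding). The HEK293T list has no span here.

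UQCC3, an assembly factor of respiratory complex III, and LBHD1, an LBH domain protein, share their 5′ ends on opposite strands. The heat shock list has a line for each: UQCC3 at chr11:62439061-62439241 (181 bp) with a ratio of 0.382, and LBHD1 at chr11:62439126-62439873 (748 bp) with 0.464. The lines share 116 bp. The hypoxia list has the LBHD1 span alone, with the same ends and a ratio of 0.267. UQCC3 therefore counts as lowered under hypoxia through the line of its neighbour, which covers 64.1% of the UQCC3 span. Every base of the UQCC3 span is exon on both strands, and the main UQCC3 start lies 40 bp from the nearest LBHD1 start. The LBHD1 span has 614 exon bases of LBHD1 but 661 of UQCC3, into the coding sequence and the 3′ UTR of the latter. The HEK293T span, named UQCC3, runs from 62439091 to 62439241 and lies wholly in the heat shock span of that name, with which it shares its end.

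R3HDM2 encodes an R3H domain protein and INHBC the beta C subunit of inhibins and activins. The heat shock list has a line for each, with ratios of 0.434 and 0.442, and the hypoxia list a single line named INHBC with 0.126, 7.94-fold lower than in untreated cells. The R3HDM2 span, chr12:57704244-57824698, is 120455 bp long. The INHBC span, chr12:57789556-57824697, is 35142 bp long, is the same in both lists and lies within the R3HDM2 span, whose end is 1 bp further on. INHBC itself is annotated from 57828567 to 57845845, so the spans that bear its name end 3870 bp before its only annotated start. All of their bases lie in R3HDM2, as 241 exon bases (all 5′ UTR) and 34901 bases of intron. On the plus strand, the exons within the spans are the 108 bases of RNU6-879P, a U6 pseudogene. The main R3HDM2 start is 129 bp beyond the span, and the non-coding R3HDM2-DT starts 73 bp from it in the opposite direction. The HEK293T list also names INHBC here, from 57816670 to 57824549, and 47 of these 7880 bases are R3HDM2 exon.

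TMEM107 encodes a membrane protein of the ciliary transition zone. Its lowered ratios are the closest to 1 among those of the 9 genes. They are 0.649 under heat shock, the highest of the 35 lowered lines, and 0.902 under hypoxia, the 26th of 27 lowered spans. The heat shock list gives the same span, chr17:8076887-8077247, again with a ratio of 3.55, the third highest of its 39 raised lines. The hypoxia span, chr17:8076972-8077211, is 240 bp long and lies within it. All bases of the spans of the 3 lists are 3′ UTR of TMEM107, and the nearer end of the heat shock span is 2451 bp from the main TMEM107 start. The nearest start is that of SNORD118, the U8 small nucleolar RNA, on the same strand. The heat shock span takes in the first 19 bases of SNORD118, while the hypoxia span ends 67 bp and the HEK293T span, 8076966 to 8077481, 61 bp upstream of its start. No start on the opposite strand was found within 1000 bp.

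DDT encodes D-dopachrome tautomerase, a homologue of the cytokine MIF. Its ratio was 0.420 under heat shock, 2.38-fold lower than in untreated cells, and 0.574 under hypoxia, 1.74-fold lower. The spans, chr22:24316498-24322019 and chr22:24316585-24322019, end on the same base, which is the first of a DDT transcript, and their other ends are 87 bp apart. They run from the main DDT start back to this upstream one, and other annotated DDT starts lie further upstream. Of the 5522 heat shock bases, 478 are DDT exon, 323 of them 5′ UTR, and 5044 are DDT intron. That intron also holds parts of GSTT3P, a pseudogene of the glutathione S-transferases. GSTT2, a glutathione S-transferase gene, starts 230 bp from the DDT start at the span end, in the opposite direction. The GSTT2 start lies outside the span but within the annotated DDT gene. No exon on the plus strand lies within the spans, and the starts of an unnamed pseudogene and an unnamed non-coding RNA lie in or near them. DDTL, a DDT-like gene, lies nearby, and whether reads of similar copies were divided between them was not tested. No HEK293T span overlaps the locus.

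**Figure D2:**
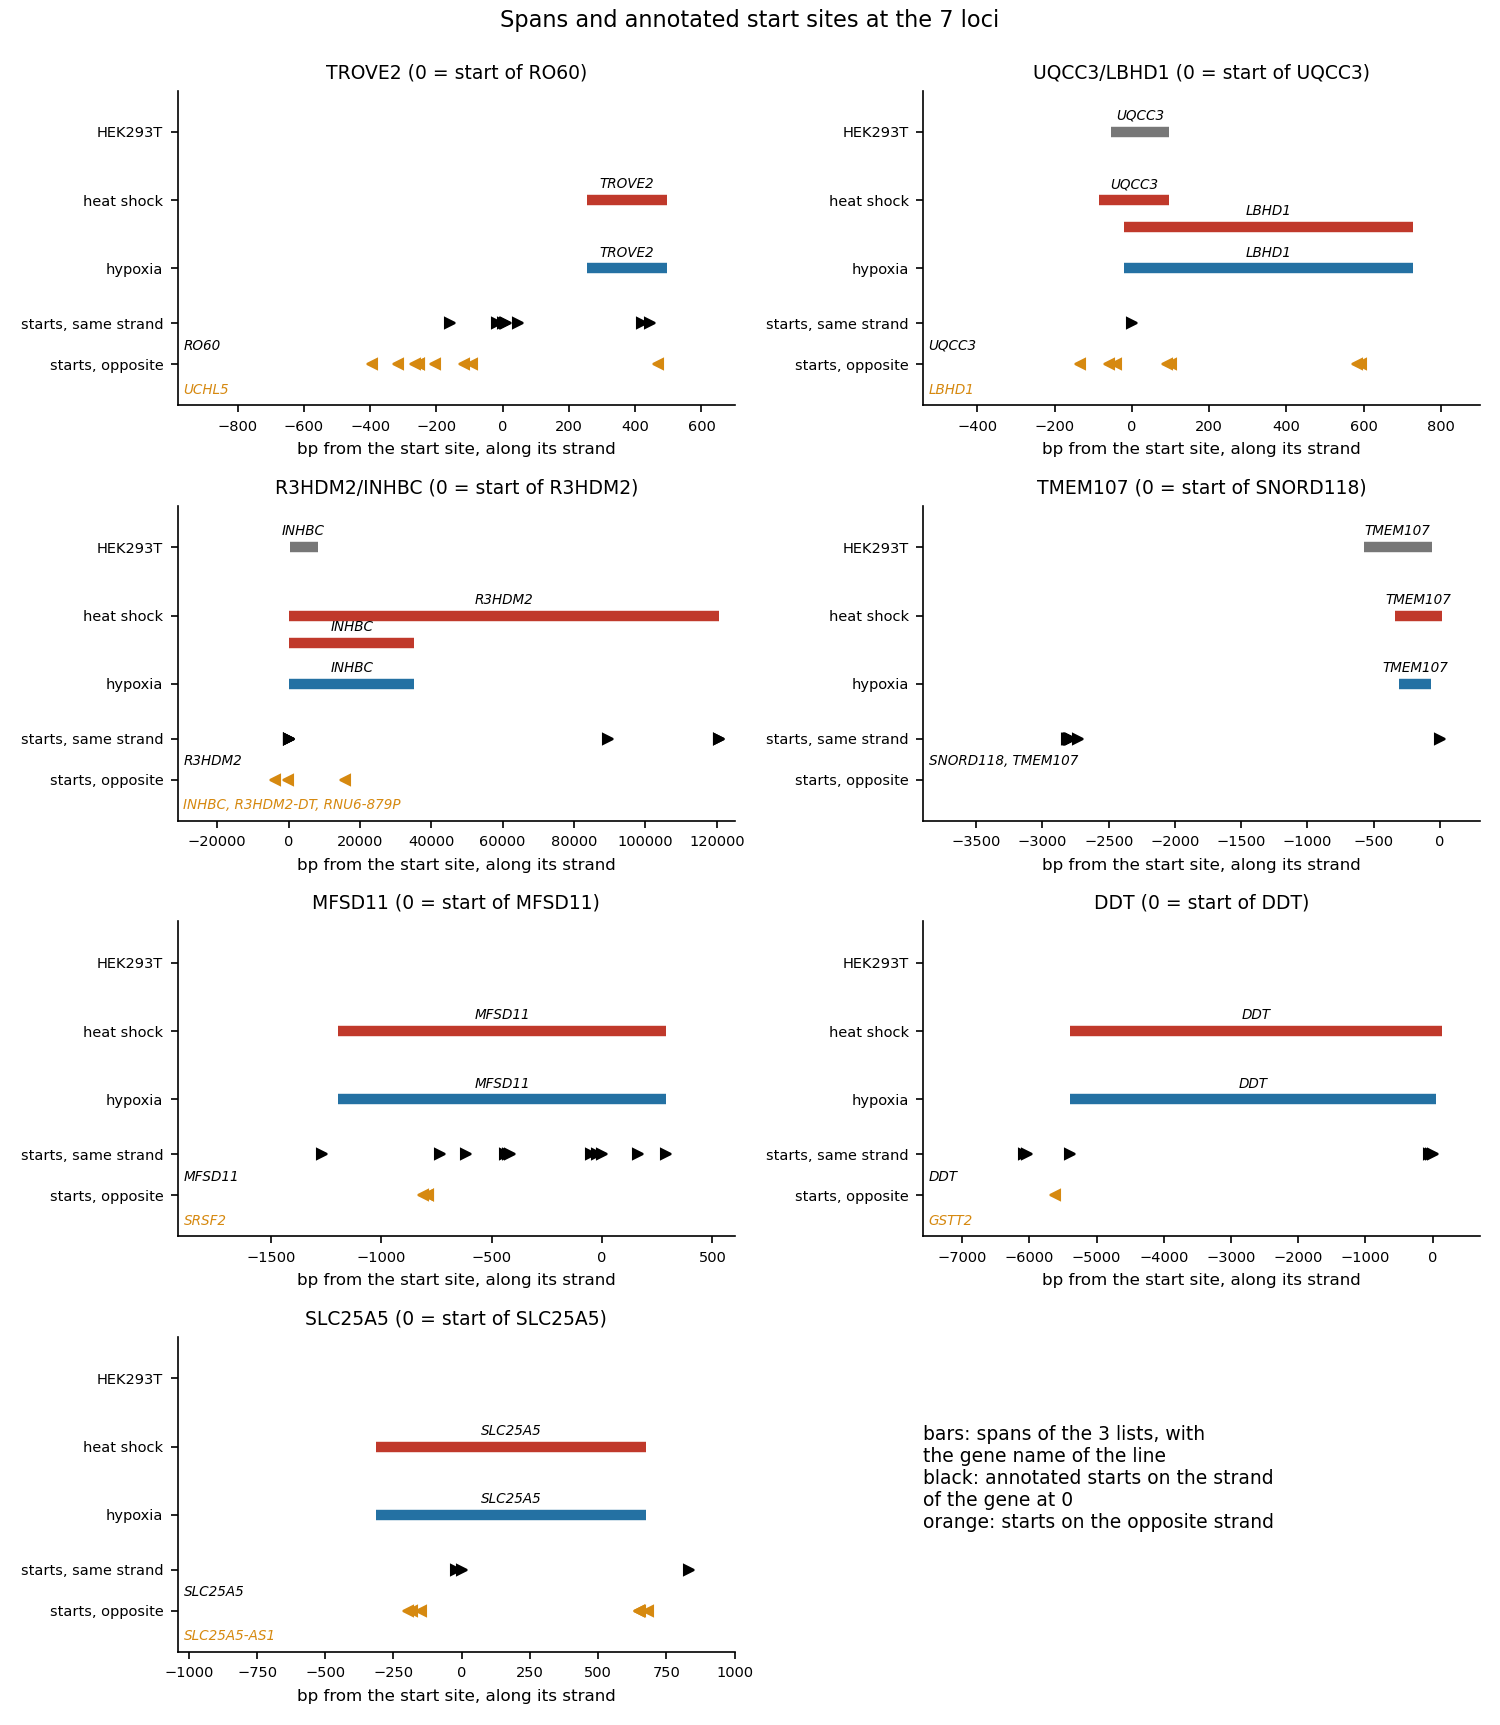
Spans of the 3 lists (bars, with the gene name of the line) and annotated start sites (triangles) at the 7 loci, against the distance in bp from the start site named above each panel, along the strand of that gene. Orange starts on the opposite strand stand in 6 of the 7 panels, TMEM107 being without one, and grey HEK293T bars in 3.

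Start sites of a pair of genes on opposite strands, within 1000 bp of each other and with at least 1 of them in the span, were found at 6 of the 7 loci. They were found for 8 of the 9 heat shock spans and 6 of the 7 hypoxia spans. Over all distinct spans, the shares were 44 of 73 under heat shock (60.3%), 188 of 385 under hypoxia (48.8%) and 733 of 1652 in the HEK293T list (44.4%). With protein-coding transcripts alone, 3 loci had such a pair: TROVE2 with UCHL5, UQCC3 with LBHD1 and MFSD11 with SRSF2. These are 4 of the 9 heat shock spans and 3 of the 7 hypoxia spans. By the same rule, such a pair was found for 18 of all 73 distinct heat shock spans (24.7%), 78 of 385 hypoxia spans (20.3%) and 318 of 1652 HEK293T spans (19.2%), and among the lowered spans for 6 of 35 and 3 of 27. At R3HDM2, DDT and SLC25A5, no pair of protein-coding transcripts met the rule. Exon bases were annotated on both strands in 7 of the 9 heat shock spans and in 5 of the 7 hypoxia spans, beside 31 of 73 (42.5%) and 95 of 385 (24.7%) over all distinct spans. Among the lowered spans, these in turn were 16 of 35 (45.7%) and 11 of 27 (40.7%), and opposite starts were found for 23 of 35 (65.7%) and 12 of 27 (44.4%). The spans of the 9 genes are counted among these.

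**Figure D3:**
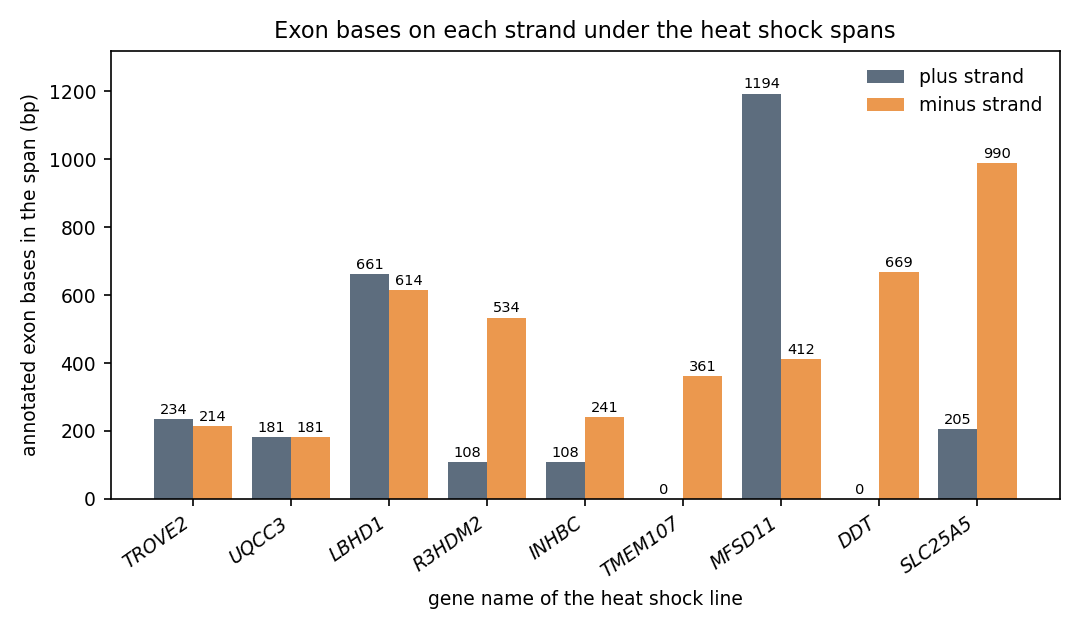
Annotated exon bases in bp on the plus strand (grey) and the minus strand (orange) under each heat shock span of the 9 genes. The UQCC3 span has 181 bases on both, the SLC25A5 span 205 and 990, and the TMEM107 and DDT spans none on the plus strand.

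A start site of the gene named lies in a stress span for 7 of the 9 genes, and for INHBC and TMEM107 it does not. This was counted with 100 bp added on both sides, and the number was the same with none added. Over all distinct spans with a name found in the annotation, 63 of 69 heat shock spans (91.3%) and 359 of 380 hypoxia spans (94.5%) hold a start of the gene they are named for. Among the lowered spans the shares are 26 of 31 (83.9%) and 20 of 27 (74.1%). The lengths of the spans of the 9 genes ran from 181 to 120455 bp, with a median of 990 bp in both lists. The medians over all distinct spans are 990 bp under heat shock and 1290 bp under hypoxia.

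A span of the HEK293T list overlaps the stress spans of 5 of the 9 genes, or 3 of 7 loci: UQCC3 with LBHD1, R3HDM2 with INHBC, and TMEM107. Counted by span, these are 5 of 9 lowered heat shock spans and 3 of 7 lowered hypoxia spans. Over all lowered spans, 17 of 35 (48.6%) under heat shock and 14 of 27 (51.9%) under hypoxia overlap a HEK293T span, and over all distinct spans 44 of 73 (60.3%) and 220 of 385 (57.1%). By gene name, 3 of the 9 are in the HEK293T list: UQCC3, INHBC and TMEM107. UQCC3 and TMEM107 alone overlap by 50% or more of both spans, and do so with their heat shock spans. The hypoxia span of TMEM107 covers 46.5% of the HEK293T span there, and the HEK293T span named UQCC3 covers 15.5% of the hypoxia span named LBHD1. The loci with no span in the HEK293T list are TROVE2, MFSD11, DDT and SLC25A5, among them the 2 lowest heat shock ratios. By the paper's rules, an m6Am peak needed more enrichment in m6A-IP than in m7G-IP. It also needed a ratio above 2 of the signal without FTO to that with FTO. A locus absent from the list is therefore not shown to lack m6Am in unstressed cells.

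Start and end are the same in both stress lists for 5 genes, TROVE2, LBHD1, INHBC, MFSD11 and SLC25A5. Over all 20 pairs of overlapping distinct spans of the 2 lists, 10 have the same start and end. Taking each ratio of a span by itself gives 22 pairs of lines, of which 9 are lowered in both lists, 8 are raised in both, 3 are lowered under heat shock alone and 2 under hypoxia alone.

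**Figure D4:**
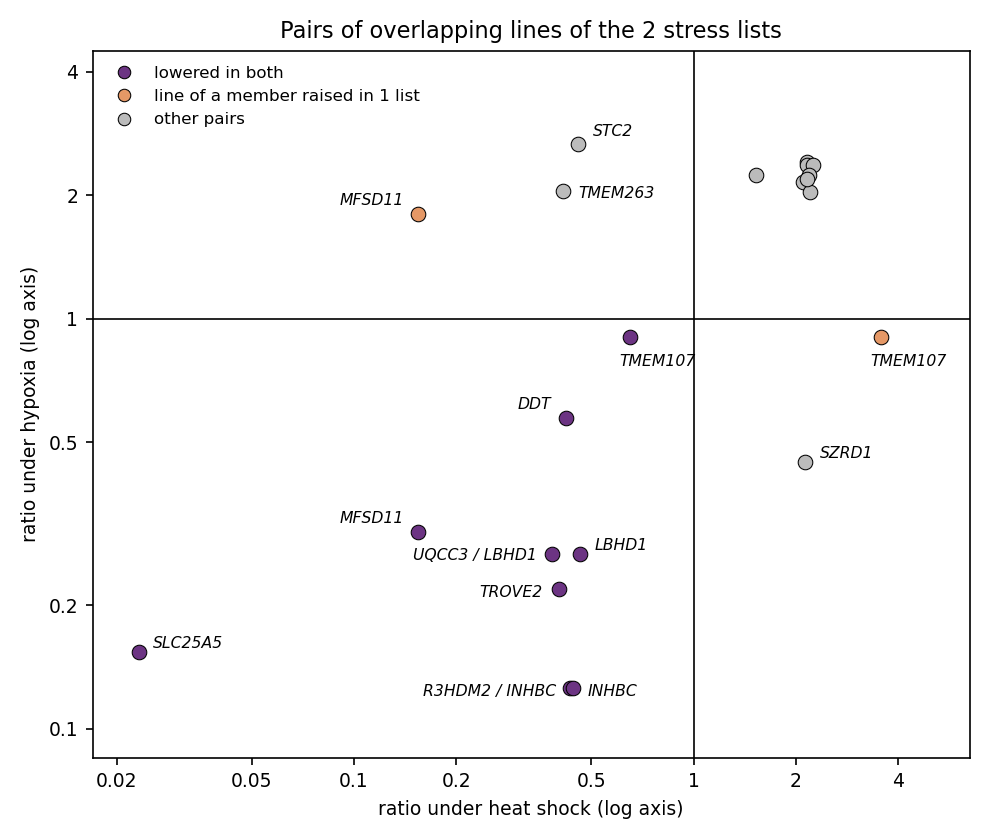
Ratio under heat shock against ratio under hypoxia (both log axes) for the 22 pairs of overlapping lines. Purple points are the 9 pairs lowered in both lists, a slash joins the name in the heat shock list to that in the hypoxia list, orange points are the raised lines of MFSD11 and TMEM107, and grey points are the other pairs.

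The values nearest the limit of 1 from within are TMEM107 (0.649 and 0.902) and the hypoxia ratio of DDT (0.574). Besides a limit on the exomePeak P value, the stated limit for a stress-induced peak was a difference above 2. These 3 values do not reach that difference. Over all distinct lowered spans, 1 of 35 under heat shock and 5 of 27 under hypoxia have a ratio between 0.5 and 1. With a ratio of at most 0.5 in both lists, 7 genes remained, without TMEM107 and DDT. Besides MFSD11 and TMEM107, 3 genes have overlapping spans that are lowered in 1 list and raised in the other, by more than 2-fold in each. SZRD1 has 2.13 under heat shock and 0.448 under hypoxia, TMEM263 has 0.413 and 2.04, and STC2, which encodes the secreted glycoprotein stanniocalcin 2, has 0.458 and 2.66. The order of the loci differs between the stresses: SLC25A5 and MFSD11 have the lowest heat shock ratios, while INHBC, SLC25A5 and TROVE2 have the lowest hypoxia ratios of the 7. Among the spans named alike in both lists, the ratio was lower under hypoxia than under heat shock for TROVE2, LBHD1 and INHBC. It was higher for DDT, SLC25A5 and, by either of its hypoxia lines, MFSD11. For TMEM107 the direction turns with the heat shock line taken, 0.649 or 3.55, against 0.902 under hypoxia. With no error on a ratio, whether such differences exceed the spread between replicates is unknown.

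Genes of the same families were counted in the lists. Of 20136 protein-coding genes, 7.30% are named in the HEK293T list, 0.338% in the heat shock list and 1.81% in the hypoxia list. Except for the m6Am and cap enzymes, the families were drawn around the 9 genes. The place of these 9 in the stress lists follows from the selection, so only the other genes can be set beside these shares. Of 6 complex III assembly genes, UQCC3 alone is in the heat shock list and none is in the hypoxia list, while UQCC3 and BCS1L are in the HEK293T list. Of 4 ADP/ATP carrier genes, only SLC25A5 is named, in both stress lists, and among 48 genes with names beginning with SLC25 it is again the only one in either. DDT is the only named gene of 3 of the MIF family, and TROVE2 the only one of 3 of the Ro and La particles. The HEK293T list names 4 of 15 genes of the ciliary transition zone, TMEM107, B9D1, CC2D2A and RPGRIP1L, and each stress list only TMEM107. Of 9 inhibin and activin genes, INHBC is in all 3 lists, through spans outside the gene, and ACVR2A in the HEK293T list. Of 17 genes with names beginning with MFSD, MFSD11 and MFSD13A are in the hypoxia list, the latter raised (2.09), MFSD11 alone is in the heat shock list and MFSD13A alone in the HEK293T list. Of 239 protein-coding genes with names beginning with TMEM, 3 are in the heat shock list, 7 in the hypoxia list and 16 (6.69%) in the HEK293T list. Without TMEM107, the stress lists name 2 (0.840%) and 6 (2.52%) of 238. TMEM107 and TMEM263 are the ones with a lowered line, and TMEM39A has the highest ratio of these, 8.01 under hypoxia. None of 6 genes of the m6Am and cap enzymes (PCIF1, FTO, CMTR1, CMTR2, RNMT and DCP2) is named in any of the 3 lists.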

How the data were processed

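In m6Am-seq, fragments of capped RNA were selected with an antibody to m7G, treated with FTO or not, and selected again with an antibody to m6A. The authors aligned the reads to hg19 with HISAT2, called peaks with exomePeak and MACS2, and called differential peaks with exomePeak and DESeq2, at a difference above 2. How replicates were combined is not given in the sources used here. In both stress lists, the authors deposited 1 ratio of stressed to untreated cells per line, in a column headed as log2 fold change. None is negative and values lie on both sides of 1, so they were read as linear ratios. They are the authors' own comparison and are given as a description of the genes chosen on them.

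The genes and gene lists were chosen with earlier results of these data known. The genes named are the 9 members, those with a start within 1000 bp of their spans, overlapping pairs lowered in 1 list alone, and the family lists. GSTT3P, TMPO and ZIC2 were named after their values were seen. Some results of the family lists are not reported here. Spans were compared from 1 bp of overlap, and lowered means a ratio under 1. Positions are numbered from 1: 10 heat shock and 64 hypoxia spans begin exactly where an annotated exon does, beside 2 and 5 once shifted by 1 bp. Gene names matched Gencode release 44 on GRCh37 for 2068 of 2111 named lines, by present or older symbol (RefSeq names were used for older symbols). The overlap rules were tested on simulated spans. The alternatives were other overlaps, names, distances, transcripts, lengths, ratio limits and repeated lines. Sequences were read with samtools 1.23.1 and pyfaidx 0.9.0.4, and values computed and drawn with Python 3.11.15, Matplotlib 3.10.9 and NumPy 2.4.6.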

Additional observations from a re-analysis of the deposited data

How the results depend on the processing

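No paired analysis was possible because the lists hold 1 set of values per condition and no result comes from a test. The number of genes that overlap a HEK293T span was 5 and became 2 with at least 50% of both spans (both through heat shock spans), 3 by gene name and 3 with only spans of at most 1000 bp. The loci with a pair of starts on opposite strands were 6, also within 500 bp and 2000 bp, and 3 with protein-coding transcripts alone, where fewer transcripts are counted. With each line counted in place of each distinct span, the median heat shock ratio went from 0.420 to 0.427 and the median hypoxia ratio from 0.267 to 0.243, by the weight of the repeated lines and the inclusion of raised ones. The number of genes lowered in both lists was 9, and 7 under each of 4 other rules: a ratio of at most 0.5 (without TMEM107 and DDT), at least 50% of both spans or own names in both lists (without UQCC3 and R3HDM2), and no span also listed as raised (without TMEM107 and MFSD11). The genes with the same start and end numbered 5, also under own names, and the genes whose spans overlap by at least 50% of both numbered 7, TMEM107 and DDT being added. Depth and replicate error are unknown, which limits every ratio.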

Other observations

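Lines are repeated in a pattern of their own, described after it was seen. The lowered lines of the hypoxia list run first in order of rising ratio, for 9 lines, and then in alphabetical order of the name, for 22. Of its spans, 5 of 385 are listed more than once: TMPO, SLC25A5, ZIC2 and TROVE2 with the same ratio, once in each stretch, and MFSD11 with a lowered and a raised ratio. In the heat shock list, TMEM107 is the only repeated span of 73, and the HEK293T list repeats none of its 1652. All 7 loci have a line in the alphabetical stretch and 2 of them, SLC25A5 and TROVE2, also have one in the other.

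The spans listed in both directions have ratios that share their last digits. For TMEM107 under heat shock they are 0.64935 and 3.54935, which differ by 2.9. For MFSD11 under hypoxia they are 0.302361 and 1.80236, which differ by 1.5 to the digits given. No other span of the lists has more than 1 ratio. Besides the P value, the stated limit for a stress-induced peak was a difference above 2. The TMEM107 ratio of 3.55 and the MFSD11 ratio of 0.302 (3.31-fold lower) lie beyond this difference, and 0.649 (1.54-fold lower) and 1.80 do not. Which of the values applies was not tested, and without these spans 7 of the 9 genes remain lowered in both.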
